A study of Mus musculus with 19 samples.

Results

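The response of chromatin to tumor necrosis factor (TNF) was examined in mouse cells that had been differentiating towards astrocytes for 72 h. The 3 libraries labelled as TNF treated at 72 h were set against the 3 labelled as untreated at 72 h, which are 6 of the 19 libraries of the series, over every peak of the deposited table. Both groups were derived from neural stem cells taken from the ventricular zone of wild type C57BL/6J mice at embryonic day 14. The cells had been expanded as neurospheres (NSPs) and then moved into medium with serum on coated plates, without or with TNF at 50 ng/ml. The series also holds NSPs, cells at 24 h without and with TNF, and untreated cells at 1 week. No sorting of cells was stated for these libraries, so each profile is that of a whole culture. The study's methods name single brains as the source of the cells and speak of independent experiments in general, but do not tie these libraries to brains or cultures. The p-values thus measure the spread between these libraries, of which a part may be technical.

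ATAC-seq uses a transposase that inserts sequencing adapters into open DNA, so a region that is more accessible collects more reads. TNF binds the receptors TNFR1 and TNFR2, whose adaptors recruit ubiquitin ligases and switch on the IKK kinases. These kinases trigger the destruction of the IκB inhibitors, and the NF-κB dimers that they held back enter the nucleus and bind κB motifs at promoters and enhancers. Known targets of NF-κB include the genes of its own inhibitors, of chemokines and of antigen presentation. TNF is also one of the microglial signals that turn astrocytes reactive.

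The promoters of 3 genes whose peaks rose with TNF, and of Gfap, whose peak fell, are printed so that the letters behind the results can be seen. Each run covers 250 bases before and 30 bases after the gene start as given by RefSeq (GRCm38.p6), 5′ to 3′ on the strand of the gene. Capitals mark matches to GGGANTTNC, a short form of the κB motif searched on both strands. They belong to Cxcl10 (chr5:92348860-92349139, minus strand), Tlr2 (chr3:83841579-83841858, minus strand), Tnip1 (chr11:54962911-54963190, minus strand) and Gfap (chr11:102897171-102897450, minus strand).
Cxcl10: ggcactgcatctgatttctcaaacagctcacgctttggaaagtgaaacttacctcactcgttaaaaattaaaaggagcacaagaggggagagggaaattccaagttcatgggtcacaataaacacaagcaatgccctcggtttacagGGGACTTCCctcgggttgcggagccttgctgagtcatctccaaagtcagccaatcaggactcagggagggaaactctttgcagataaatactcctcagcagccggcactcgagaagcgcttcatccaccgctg
Tlr2: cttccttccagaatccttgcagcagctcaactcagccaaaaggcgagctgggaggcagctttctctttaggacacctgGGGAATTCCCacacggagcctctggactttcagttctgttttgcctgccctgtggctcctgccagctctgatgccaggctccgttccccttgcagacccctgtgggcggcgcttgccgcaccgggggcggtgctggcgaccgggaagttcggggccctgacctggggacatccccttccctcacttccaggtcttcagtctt
Tnip1: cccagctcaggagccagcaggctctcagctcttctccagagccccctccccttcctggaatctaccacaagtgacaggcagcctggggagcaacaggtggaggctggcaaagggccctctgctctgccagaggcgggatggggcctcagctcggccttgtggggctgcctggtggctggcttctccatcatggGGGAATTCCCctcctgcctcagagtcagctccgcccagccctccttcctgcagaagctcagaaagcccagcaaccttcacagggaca
Gfap: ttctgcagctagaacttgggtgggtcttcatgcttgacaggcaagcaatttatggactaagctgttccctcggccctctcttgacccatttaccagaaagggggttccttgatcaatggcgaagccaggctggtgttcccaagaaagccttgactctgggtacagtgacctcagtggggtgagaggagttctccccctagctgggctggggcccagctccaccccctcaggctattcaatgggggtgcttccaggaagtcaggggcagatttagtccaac
The κB match of Cxcl10 lay 103 bases before the gene start. Tlr2 held 2 overlapping matches, 172 and 171 bases before the start, and Tnip1 held 2 at 57 and 56 bases before it. The Gfap window held none of these letters. Neither did the windows of H2-K1, H2-D1 and C3, whose covering peaks also rose. The short form leaves out κB sites with other letters. A window without a match may thus still hold a κB site, and a printed one may hold more than those marked. The 3 rising promoters printed are ones with a match, so they do not show how frequent matches were.

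These promoters were set beside all 32851 promoter windows of 300 bases in the RefSeq table. A tested peak overlapped 11844 of them by at least 150 bases. The covering peak was called higher with TNF for 359 windows (304 distinct peaks) and lower for 91 (81 distinct peaks). The κB letters occurred in 14.5% of the windows under higher peaks, in 3.30% of those under lower peaks and in 4.92% of all covered windows. Windows with κB letters were thus more frequent under rising peaks, as a count of letters with no measurement of binding.

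Other motifs divided the windows differently. The AP-1 letters TGANTCA were found in 14.2% of windows under higher peaks and in 12.1% under lower ones, both above the 4.81% of all covered windows. For the C/EBP letters TTGCNNAA the share was 17.6% under lower peaks, against 7.80% under higher peaks and 7.64% of covered windows. The GC box GGGCGG, frequent in promoters rich in CpG sites, was present in 57.4% of windows under higher peaks, in 17.6% under lower peaks and in 66.2% of covered windows. Shares for the IRF letters GAAANNGAA were close together, at 7.52%, 6.59% and 6.23% in that order. The NRF2 letters TGACNNNGC had shares of 12.0%, 9.89% and 14.8% under higher, lower and all covering peaks, and the CRE letters TGACGTCA had 3.62%, 1.10% and 3.50%. For the TEAD letters GGAATG these shares were 13.6%, 19.8% and 11.7%, and for the SOX letters ACAANGG 13.1%, 17.6% and 10.6%. A window can hold several of these motifs. Over all 32851 windows the shares were 4.26% for κB, 7.81% for AP-1, 10.8% for C/EBP, 35.7% for the GC box, 8.56% for IRF, 12.4% for NRF2, 1.79% for CRE, 14.7% for TEAD and 13.6% for SOX.

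**Figure D1:**
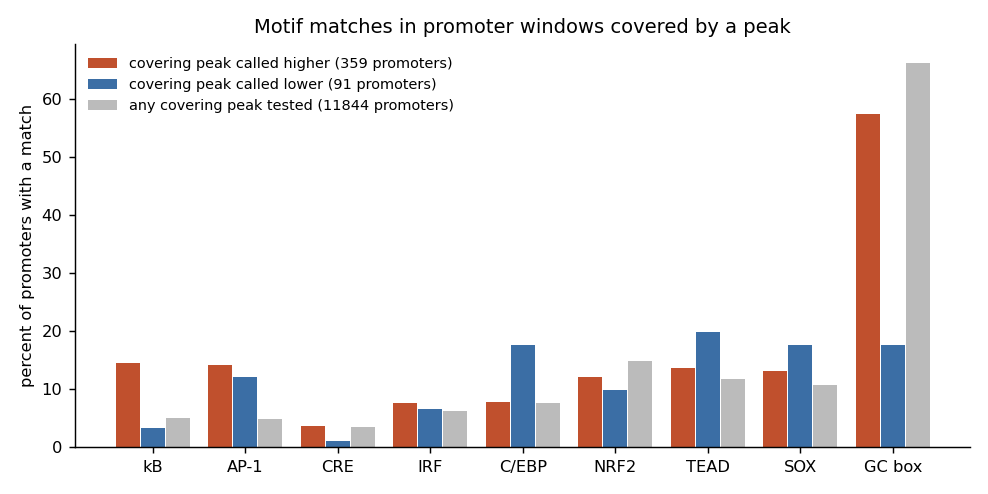
Share of promoter windows (percent, vertical axis) that hold a match to each motif (horizontal axis), for windows covered by a peak called higher with TNF at 72 h, by a peak called lower, or by any tested peak. The κB bar stands at 14.5% under higher peaks against 3.30% under lower peaks, while both AP-1 bars stand above the 4.81% of all covered windows.

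The 6 libraries held 11337790 to 18353733 reads in peaks, and replicate 1 with TNF was the deepest. Spearman correlations across peaks were 0.954 to 0.955 among the untreated libraries, 0.956 to 0.966 among those with TNF and 0.901 to 0.917 between the groups. Cell type markers were looked up at gene-end peaks, whose centre lies within 1 kb of either end of a gene. All 19 libraries share the same peaks, so a gene-end peak alone does not show which cell types were present at 72 h. The share of all genes with a gene-end peak was not counted. Such a peak was found for 17 of 22 homeostatic astrocyte genes (not for Aqp4, Gjb6, Slc14a1, Slc4a4 and Mlc1), but also for 9 of 12 neuron markers and 6 of 11 oligodendrocyte lineage markers. Of 12 microglia markers 4 had one, while Aif1, Cx3cr1, Csf1r, Itgam, Ptprc, C1qa, Trem2 and Tyrobp had none. The summed level of those 4 peaks was 589 to 641 normalised reads without TNF and 691 to 742 with it. Of the 4 peaks 0 were called, against 3.29% higher and 1.45% lower of all gene-end peaks. The sum over the 6 oligodendrocyte lineage peaks was 1403 to 1440 without TNF and 1624 to 1827 with it. The part of such cells in the results was not tested. In bulk libraries, a region that is less open in every cell and one that is open in fewer cells cannot be told apart.

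TNF changed accessibility in both directions at 72 h. Of 88919 peaks tested, 11.8% were called, at a Benjamini-Hochberg adjusted p under 0.05 in limma-trend, with 5551 (6.24%) higher and 4932 (5.55%) lower with TNF. Most changes were moderate, with a median size of 0.90 on the log2 scale among higher and 0.89 among lower peaks. At least 2-fold changes were seen at 2279 higher (2.56%) and 1889 lower (2.12%) peaks. Large changes were mainly increases, with 299 peaks at least 4-fold higher against 74 at least 4-fold lower, and 45 at least 8-fold higher against 0 at least 8-fold lower. All 3 TNF libraries lay above all 3 untreated ones at 15672 of the peaks tested (17.6%) and below them at 13627 (15.3%), and the groups were apart in this way at 5499 of the higher and 4835 of the lower calls.

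The balance of directions depended on the scaling. Higher peaks made up 53.0% of the calls, but 39.0% when each library was scaled by its total reads (4221 higher and 6601 lower). In an edgeR fit they made up 49% (5199 higher and 5419 lower). With a library left out they made up 52.4% to 57.8%, while the counts fell in both directions. The higher count fell to 3602 without replicate 3 with TNF. The lower count fell to 2829 without untreated replicate 1, to 3110 without untreated replicate 3 and to 3275 without replicate 3 with TNF.

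**Figure D2:**
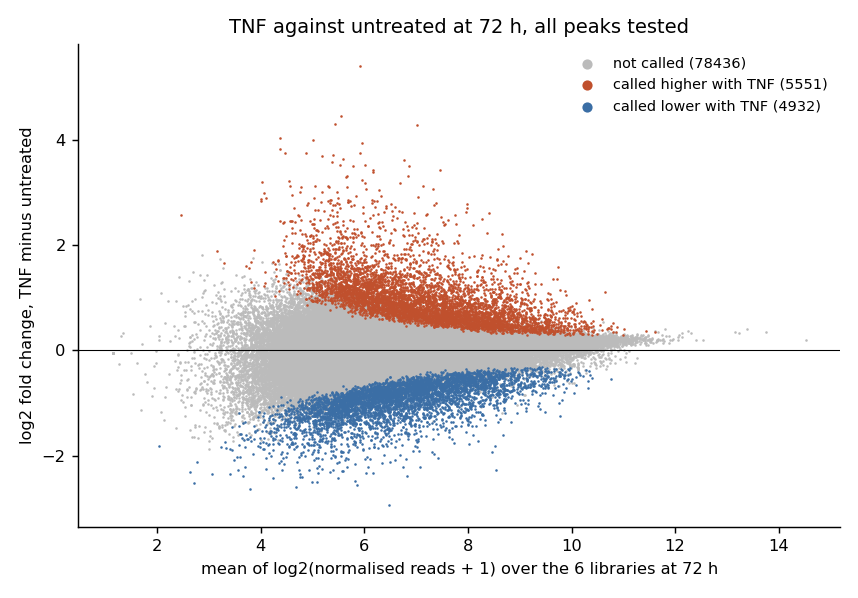
Each point is 1 of the 88919 peaks tested, with its mean level over the 6 libraries (log2 scale, horizontal axis) and its log2 fold change, TNF minus untreated (vertical axis). The 5551 peaks called higher and the 4932 called lower are coloured, and the highest call, near Mefv, reaches 5.41 while the lowest named one, in Gabbr2, is at -2.94.

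Gene ends took a smaller share of the response than other regions. TNF raised 439 (3.29%) and lowered 194 (1.45%) of the 13346 gene-end peaks. Inside genes, away from their ends, 6.50% of 40563 peaks were higher and 6.42% lower. Up to 50 kb from a gene the shares were 7.07% and 5.64% of 19766 peaks, and beyond it 7.14% and 6.71% of 15124. The tilt of gene ends towards higher calls depended on the scaling, with 291 against 258 by total reads. Left-out libraries moved these counts too, to 204 higher without replicate 3 with TNF, 234 without untreated replicate 1 and 273 without replicate 2 with TNF, and to 109 lower without untreated replicate 1, 117 without untreated replicate 3 and 127 without replicate 1 with TNF. The median log2 fold change was 0.12 over gene ends and 0.03 over all peaks.

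The strongest calls lay mostly outside gene ends. The peak with the largest increase (chr16:3723209-3723709) is 5248 bp from Mefv, the gene of the inflammasome protein pyrin, and held 6.43, 5.98 and 14.0 normalised reads without TNF and 426, 349 and 402 with it. A peak 25221 bp from Ptprc (chr1:138037388-138037888), a gene known from blood cells, had 12.9, 39.5 and 43.3 without TNF and 544, 613 and 548 with it (log2 difference 4.28 ± 0.33 SE, adjusted p 8.3e-10 by limma-trend). The nearest gene only names such a site, and no link to its expression was measured. Inside Apobec1, which encodes an RNA-editing enzyme, the peak at chr6:122598457-122598957 had 88.8, 112 and 99.4 without TNF and 680.4, 575 and 618 with it (2.63 ± 0.18 SE, adjusted p 7.1e-11). Inside Pecam1, an endothelial adhesion gene, the peak at chr11:106674535-106675035 was already open and had 241, 238 and 226 without TNF and 732, 766 and 966 with it (1.79 ± 0.12 SE, adjusted p 9.4e-11). All 3 were separated between the groups, which was a condition of the choice for those in Apobec1 and Pecam1.

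Strong decreases were likewise found outside gene ends. In Gabbr2, a GABA receptor subunit gene, the peak at chr4:46710033-46710533 fell to a mean 7.69-fold lower, with 273, 189 and 291 normalised reads without TNF and 23.2, 45.8 and 28.8 with it. In Recql5, a DNA helicase gene, the peak at chr11:115902180-115902680 had 234, 221 and 233 without TNF and 45.6, 51.7 and 48.0 with it (log2 difference -2.22 ± 0.22 SE, adjusted p 8.7e-08 by limma-trend). A site 9862 bp from Steap3, which encodes a metalloreductase, had 261, 275 and 236 without TNF and 49.2, 54.7 and 42.0 with it at chr1:120280693-120281193 (-2.39 ± 0.27 SE, adjusted p 6e-07). The groups did not overlap at any of these sites, which was a condition of the choice by p-value for those in Gabbr2 and Recql5.

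Peaks that were almost closed in one group were few. With a limit of 10 reads in each library of one group and at least 20 in each of the other, 16 peaks opened and 4 closed with TNF. At a limit of 5 reads 2 opened and 0 closed, and at 3 reads neither direction had any. The peak inside Syt1, a synaptic vesicle gene, opened and held 6.43, 5.98 and 8.92 normalised reads without TNF and 129.6, 130.1 and 123.6 with it (chr10:108538549-108539049, log2 difference 4.01 ± 0.41 SE, adjusted p 1e-07 by limma-trend). One that closed lies 126559 bp from Dusp26, a phosphatase gene, and held 37.3, 26.3 and 38.2 without TNF and 6.26, 1.48 and 8.40 with it (-2.64 ± 0.44 SE, adjusted p 0.00013).

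Several inhibitors of NF-κB responded at their gene ends. The gene-end peaks of Nfkbib, Nfkbie and Cyld were not called (log2 differences 0.17, 0.35 and 0.24). Nfkbia encodes IκBα, the inhibitor that NF-κB resupplies after activation, and its peak (chr12:55492227-55492727) held 476, 524 and 538 normalised reads without TNF and 837, 929.7 and 969.7 with it. All 3 treated libraries were above the untreated ones (log2 difference 0.83 ± 0.11 SE, adjusted p 3.9e-06 by limma-trend). Nfkbiz, the gene of the nuclear IκBζ, had 396, 461 and 377 without TNF and 753, 785 and 745 with it at chr16:55838725-55839225 and was 1.85-fold higher with TNF (0.89 ± 0.11 SE, adjusted p 2.3e-06). At Tnfaip3, whose product A20 shuts off the pathway, the peak (chr10:19015164-19015664) had 404, 427 and 395 without TNF and 566, 605 and 683 with it (0.59 ± 0.13 SE, adjusted p 0.0019).

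Tnip1, whose protein ABIN1 works with A20, had the largest gene-end change of this list. The peak over the promoter printed above (chr11:54962726-54963226) held 19.3, 20.3 and 19.1 normalised reads without TNF and 131, 140.4 and 143 with it (log2 difference 2.76 ± 0.43 SE, adjusted p 6.3e-05 by limma-trend). A second peak inside the gene (chr11:54961370-54961870) had 41.2, 29.9 and 35.7 without TNF and 355, 374 and 352 with it (3.31 ± 0.29 SE, adjusted p 7.1e-09). Both sites were low in each untreated library and open in each treated one. Of the 8 locus peaks, where the locus is the gene and 10 kb on either side, 3 were higher and 1 lower. The lower one (chr11:54927653-54928153) had 113, 92.1 and 107 without TNF and 71.5, 66.5 and 64.8 with it (-0.61 ± 0.19 SE, adjusted p 0.036), a call lost without any 1 of the libraries but untreated replicate 2 (adjusted p 0.064 to 0.14). The highest peak of the locus (chr11:54955858-54956358) had 1044, 925 and 1193 without TNF and 956, 1144 and 1228 with it and the groups overlapped (0.07 ± 0.13 SE, adjusted p 0.78).

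Other relatives responded inside the gene. Nfkbie, the gene of IκBε, had a peak at chr17:45557327-45557827 with 14.2, 20.3 and 20.4 normalised reads without TNF and 122, 166 and 129.6 with it (log2 difference 2.86 ± 0.47 SE, adjusted p 0.00011 by limma-trend). At Bcl3, a nuclear IκB relative, 4 of 5 locus peaks were higher. The peak at chr7:19817368-19817868 had 81.1, 62.2 and 90.5 without TNF and 298, 288 and 268 with it (1.87 ± 0.25 SE, adjusted p 8.9e-06). Among the genes of the subunits, Nfkb2 had 3 of 5 locus peaks higher, Nfkb1 2 of 13, Rela 1 of 2, Rel 1 of 1 and Relb 0 of 5. The Rel call was lost without untreated replicate 1 and without replicates 2 or 3 with TNF. Rela had 435, 422 and 393 without TNF and 555, 528 and 622 with it at its gene end (0.44 ± 0.11 SE, adjusted p 0.0098), a call lost without untreated replicate 3 (adjusted p 0.052) or replicate 3 with TNF (adjusted p 0.07). Relb had 884, 901 and 981 without TNF and 1034, 1149.9 and 1161 with it (0.27 ± 0.10 SE, adjusted p 0.075).

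Across the 17 NF-κB subunits, inhibitors and kinases, 21 of 88 locus peaks (23.9%) were higher and 1 (1.14%) lower, against 6.24% and 5.55% of all peaks. The higher count was 14 to 18 with a library left out. At least 1 peak rose at 11 of these genes and at least 1 fell at 1, while among all 17371 genes with a locus peak 17.6% had a higher and 15.3% a lower one. At their gene ends, 7 of 15 peaks rose and 0 fell, against 3.29% and 1.45% of all gene-end peaks. The gene-end calls of Nfkbia, Nfkbiz, Tnfaip3 and Tnip1 held with each library left out.

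**Figure D3:**
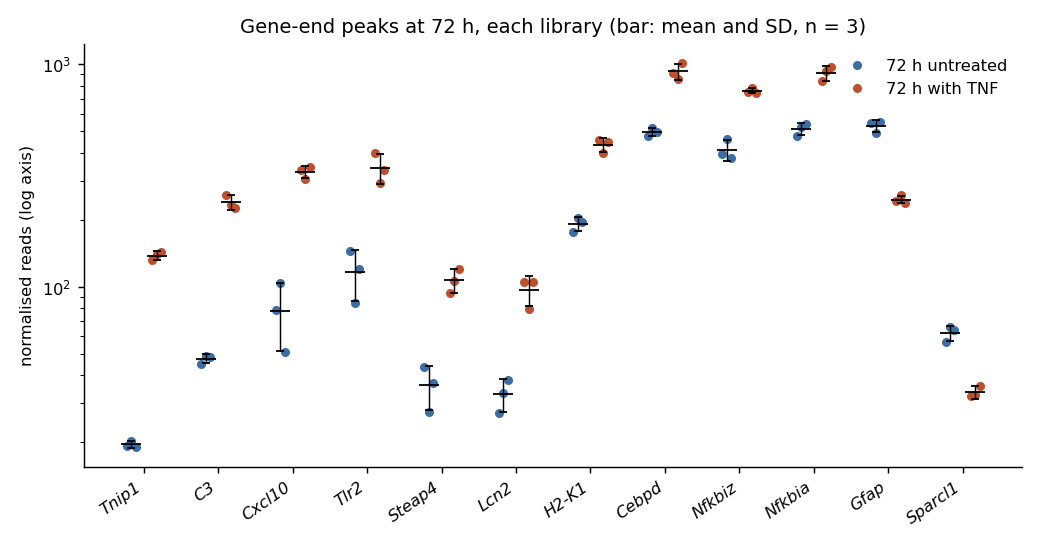
Normalised reads (log axis) at the gene-end peaks of 12 genes in the 3 untreated and 3 TNF-treated libraries at 72 h, 1 point a library, with the mean and SD (n = 3). The 12 genes were picked from those with a called gene-end peak, and the groups do not overlap at any of them. Among all calls the groups were apart at 5499 of 5551 higher and 4835 of 4932 lower ones. Gfap and Sparcl1 are the ones lower with TNF. The call of Sparcl1 is lost with each library left out (adjusted p 0.079 to 0.12 by limma-trend), and that of Lcn2 without any 1 of 3 libraries.

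Receptor and adaptor loci had 17 of 61 peaks (27.9%) higher and 1 (1.64%) lower, with 11 to 14 higher when a library was left out. Traf2, an adaptor of the TNF receptors, had 5 higher peaks of 6. The one at chr2:25534145-25534645 inside the gene held 381, 374 and 369.6 normalised reads without TNF and 996, 1049 and 1079 with it (log2 difference 1.47 ± 0.13 SE, adjusted p 4.2e-09 by limma-trend). A site 2671 bp outside the gene (chr2:25549361-25549861) had 19.3, 49.0 and 39.5 without TNF and 175, 136 and 222 with it (2.34 ± 0.39 SE, adjusted p 0.00013). The gene-end peak was not called, and its groups overlapped with 1184, 1041 and 1281 without TNF and 1202, 1509 and 1533 with it (0.27 ± 0.11 SE, adjusted p 0.094). The weakest of the 5, at chr2:25509905-25510405, lost its call with total-read scaling and in fits without single libraries, where its adjusted p reached 0.14.

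Birc2 and Birc3, the genes of cIAP1 and cIAP2, lie side by side and share a peak (chr9:7838025-7838525). It held 61.8, 59.8 and 82.8 normalised reads without TNF and 339.7, 269 and 281 with it and was counted for both (log2 difference 2.11 ± 0.27 SE, adjusted p 4.2e-06 by limma-trend). Traf3, a brake on the noncanonical pathway, had 135, 195 and 158 without TNF and 272, 265 and 314 with it at its gene end (0.81 ± 0.15 SE, adjusted p 0.00034). At Tnfrsf1a, the gene of TNFR1, the gene-end peak had overlapping values of 209.7, 199 and 181 without TNF and 219, 161 and 208 with it (-0.01 ± 0.16 SE, adjusted p 0.97). Another of its 5 locus peaks, inside the neighbouring gene Scnn1a, was higher, with 174, 207 and 201 without TNF and 369, 322 and 379 with it (0.88 ± 0.18 SE, adjusted p 0.0012). At Tnfrsf1b 0 of 2 locus peaks were called, and at Tnf 0 of 1.

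Chemokine and cytokine loci had 11 of 48 peaks (22.9%) higher and 1 (2.08%) lower, and 8 to 10 higher with a library left out. Cxcl10 encodes a chemokine that attracts T cells, and the peak over its promoter (chr5:92348735-92349235) held 78.5, 104 and 51.0 normalised reads without TNF and 334, 304 and 347 with it. Its mean was 4.22-fold higher with TNF (log2 difference 2.12 ± 0.22 SE, adjusted p 1.4e-07 by limma-trend). The other locus peak (chr5:92353566-92354066) had 162, 199 and 175 without TNF and 294, 276 and 319 with it (0.73 ± 0.15 SE, adjusted p 0.0012). Both lie inside Art3, which overlaps Cxcl10, so accessibility alone does not assign them to one gene.

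At Ccl2, which draws monocytes, the larger change lay 2451 bp outside the gene (chr11:82032876-82033376), with 106, 106 and 109.6 normalised reads without TNF and 357, 392 and 328 with it (log2 difference 1.73 ± 0.20 SE, adjusted p 5.4e-07 by limma-trend). A peak 4266 bp from Ccl5, another attractant of leukocytes, had 174, 145 and 195 without TNF and 361, 347 and 409 with it (1.12 ± 0.15 SE, adjusted p 4.8e-06). Both were separated between the groups. Csf1 and Il34 encode the ligands of the microglial receptor CSF1R, and each had a rising peak inside the gene. In all, Csf1 had 2 higher and 1 lower of 6 locus peaks, the lower call being lost without untreated replicates 1 or 2, and Il34 had 3 higher and 0 lower of 9. The Csf1 peak (chr3:107743571-107744071) had 92.6, 71.8 and 80.3 without TNF and 234, 189 and 263 with it (1.47 ± 0.22 SE, adjusted p 4.4e-05), and the Il34 peak (chr8:110794588-110795088) had 38.6, 28.7 and 34.4 without TNF and 163, 208 and 193 with it (2.44 ± 0.42 SE, adjusted p 0.00021). None of the locus peaks of Cxcl1 (2), Cxcl2 (1), Il6 (2) and Lif (6) was called.

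Loci of innate immune receptors had 10 of 35 peaks (28.6%) higher and 0 lower, and 7 to 8 higher with a library left out. Tlr2, the receptor for bacterial lipoproteins, rose at both of its locus peaks. The gene-end peak (chr3:83841288-83841788), which overlaps the promoter printed above, held 144, 84.9 and 119.8 normalised reads without TNF and 397, 293 and 335 with it (log2 difference 1.57 ± 0.21 SE, adjusted p 6.2e-06 by limma-trend). The other (chr3:83844783-83845283) had 39.9, 37.1 and 42.1 without TNF and 127, 105 and 114 with it (1.51 ± 0.29 SE, adjusted p 0.00066). Tlr4, the receptor for lipopolysaccharide, had 92.6, 94.5 and 81.6 without TNF and 273, 229 and 228 with it inside the gene at chr4:66828607-66829107 (1.43 ± 0.21 SE, adjusted p 2e-05). Each of the 3 sites was apart between the groups.

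Interferon response and antigen presentation loci had 9 of 66 peaks (13.6%) higher and 1 (1.52%) lower. H2-K1 and H2-D1 encode classical class I molecules. The gene-end peak of H2-K1 (chr17:34000118-34000618) held 176, 203 and 195 normalised reads without TNF and 456, 399 and 449 with it (log2 difference 1.18 ± 0.15 SE, adjusted p 2.8e-06 by limma-trend), and that of H2-D1 (chr17:35262777-35263277) had 179, 221 and 171 without TNF and 434, 401 and 449 with it (1.17 ± 0.16 SE, adjusted p 1.4e-05). These genes have close copies, so reads may have been shared and the values are uncertain as to gene. Nlrc5, the activator of class I genes, had 92.6, 71.8 and 93.0 without TNF and 302, 312 and 301 with it at a peak inside the gene (chr8:94493290-94493790, 1.83 ± 0.17 SE, adjusted p 2.1e-08). Near Tap2, a subunit of the peptide transporter, the peak at chr17:34218620-34219120 had 389, 333 and 367 without TNF and 843, 868 and 945 with it (1.29 ± 0.11 SE, adjusted p 7e-09). The interferon factor gene Irf1 had 309, 331 and 288 without TNF and 471, 412 and 510.1 with it at its gene end (0.58 ± 0.13 SE, adjusted p 0.0032). The lower peak lies inside Phrf1 in the locus of Irf7 and had 108, 88.5 and 101 without TNF and 15.2, 31.0 and 33.6 with it (-1.93 ± 0.41 SE, adjusted p 0.002).

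Genes known to rise in reactive astrocytes had 22 of 93 locus peaks (23.7%) higher and 5 (5.38%) lower, and 15 to 20 higher with a library left out. At least 1 peak rose at 13 of the 23 genes and at least 1 fell at 3. C3, the central complement component, changed most at its gene end (chr17:57227906-57228406), with 45.0, 49.0 and 48.4 normalised reads without TNF and 259, 234 and 226 with it (log2 difference 2.31 ± 0.36 SE, adjusted p 5.1e-05 by limma-trend). Steap4, a metalloreductase gene, had 43.8, 27.5 and 37.0 without TNF and 93.9, 106 and 120.0 with it (chr5:7960014-7960514, 1.56 ± 0.29 SE, adjusted p 0.00049). At Cp, the gene of ceruloplasmin, a peak 2858 bp away (chr3:19953825-19954325) had 351, 389 and 361 without TNF and 773, 832 and 868 with it (1.17 ± 0.13 SE, adjusted p 5e-07). These 3 kept their calls with each library left out. Near Sbno2, a corepressor gene with 4 of 14 locus peaks higher, the peak at chr10:80107508-80108008 had 169.9, 157 and 187 without TNF and 525, 509.9 and 530.5 with it (1.60 ± 0.20 SE, adjusted p 1.9e-06).

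Further members of the list were less uniform. Lcn2, the gene of lipocalin 2, had 27.02, 33.5 and 38.2 normalised reads without TNF and 105, 79.8 and 106 with it at its gene end (log2 difference 1.53 ± 0.42 SE, adjusted p 0.015 by limma-trend), a call lost without untreated replicate 1 (adjusted p 0.074) and without replicates 1 (0.06) or 3 (0.065) with TNF. Cd109 had 256, 341 and 314 without TNF and 623, 636 and 575 with it inside the gene (1.02 ± 0.14 SE, adjusted p 1.1e-05) and Osmr, the oncostatin M receptor gene, 197, 237 and 217 without TNF and 445, 341 and 390.1 with it (0.85 ± 0.15 SE, adjusted p 0.00028). Other genes of the list had lower peaks. Aspg, an asparaginase gene, had 3 of 6 locus peaks lower and 1 higher. Its gene-end peak had 157, 119.6 and 215 without TNF and 67.1, 93.1 and 88.8 with it (-0.95 ± 0.24 SE, adjusted p 0.0089), a call lost without untreated replicate 3 (adjusted p 0.088) or replicate 1 with TNF (adjusted p 0.063). Cd44, a hyaluronan receptor gene, had 1 of 7 locus peaks lower, with 485, 457 and 515 without TNF and 235, 226 and 252 with it at chr2:102820299-102820799 (-1.03 ± 0.13 SE, adjusted p 1.7e-06). At Icam1 0 of 3 locus peaks were called, at Ptx3 0 of 2 and at Timp1 0 of 1.

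Homeostatic astrocyte genes showed the opposite balance, with 7 of 133 locus peaks (5.26%) higher and 16 (12.0%) lower. With a library left out 4 to 7 were higher and 10 to 13 lower. Gfap encodes the intermediate filament protein used as an astrocyte marker. It was counted in this list and not among the reactive genes, although the paper also describes GFAP as a marker of reactive astrocytes. The peak over the promoter printed above (chr11:102897110-102897610) held 542, 493 and 552 normalised reads without TNF and 243, 257 and 239 with it. It was 2.15-fold lower with TNF (log2 difference -1.10 ± 0.22 SE, adjusted p 0.0011 by limma-trend). The neighbouring peak at chr11:102898291-102898791, the highest of the locus, had 1996, 1667 and 2245 without TNF and 1843, 2245 and 2183 with it and overlapping groups (0.09 ± 0.12 SE, adjusted p 0.7). At the other end of the gene a peak (chr11:102888051-102888551) had 113, 111 and 106 without TNF and 198, 182 and 189.6 with it (0.78 ± 0.22 SE, adjusted p 0.015), and its adjusted p was 0.05 to 0.059 without untreated replicate 3 or without replicates 1 or 3 with TNF. The Gfap locus thus held a lower call at the promoter and a less stable higher call at the other end of the gene.

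Slc4a4, a bicarbonate cotransporter gene, had 4 of 20 locus peaks lower and 1 higher, and 1 to 3 lower with a library left out (1 without untreated replicate 3, 2 without replicate 1 with TNF). The peak at chr5:89171217-89171717 had 687, 648 and 806 normalised reads without TNF and 217, 219 and 268 with it (log2 difference -1.60 ± 0.26 SE, adjusted p 8e-05 by limma-trend). Gpld1, a phospholipase gene with 3 of 9 locus peaks lower, had 522, 384 and 532 without TNF and 259, 302 and 272 with it at chr13:24985386-24985886 (-0.77 ± 0.15 SE, adjusted p 0.00058). Ntsr2, a neurotensin receptor gene, had 171, 166 and 185 without TNF and 88.5, 60.6 and 94.8 with it inside the gene (-1.11 ± 0.23 SE, adjusted p 0.0014). These were separated decreases away from gene ends. Aldh1l1, a folate enzyme gene and astrocyte marker, had 4 higher peaks of 9 and 0 lower. The one at chr6:90561278-90561778 had 359, 372 and 435 without TNF and 623, 631 and 646 with it (0.71 ± 0.11 SE, adjusted p 8.1e-05). At Slc1a3 0 of 8, at Gja1 0 of 4 and at Kcnj10 0 of 9 locus peaks were called.

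**Figure D4:**
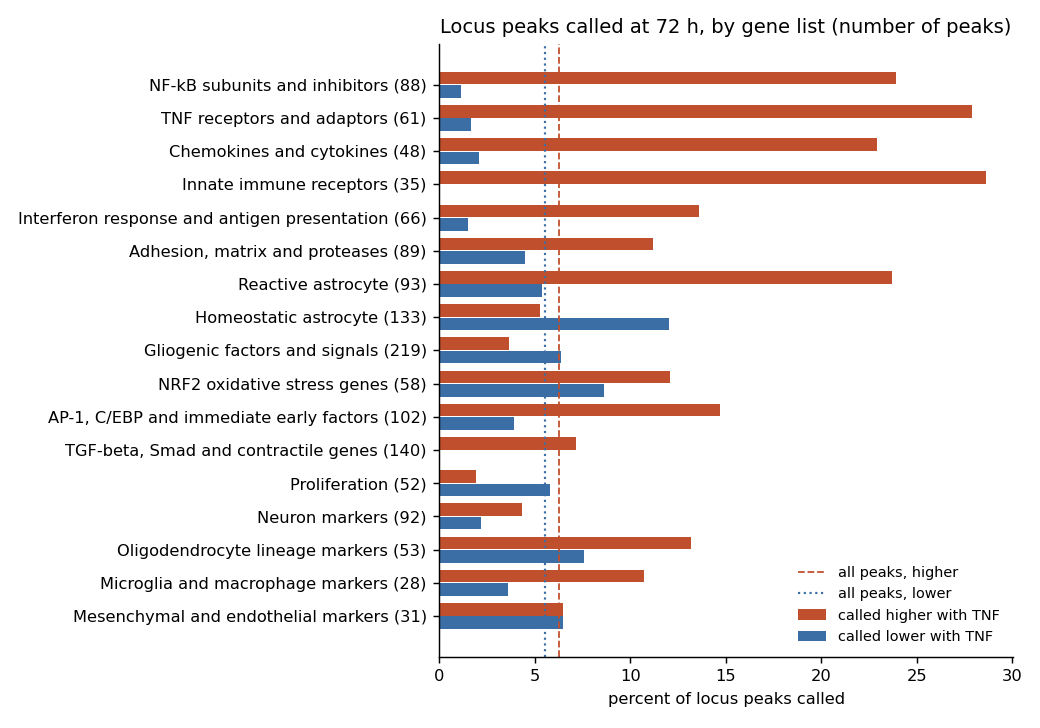
Percent of locus peaks called higher and lower with TNF at 72 h in each gene list, beside the 6.24% and 5.55% of all peaks tested. Innate immune receptors reach 28.6% higher and 0 lower, while homeostatic astrocyte genes have 5.26% higher and 12.0% lower.

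Gliogenic factors and signals had 8 of 219 locus peaks (3.65%) higher and 14 (6.39%) lower, against 6.24% and 5.55% of all peaks. With a library left out 3 to 5 were higher and 7 to 10 lower. Notch1, the receptor that maintains stem cells and favours glia, had 4 lower peaks of 17. The peak at chr2:26472422-26472922 had 143, 158 and 136 normalised reads without TNF and 67.1, 68.0 and 76.8 with it (log2 difference -1.03 ± 0.19 SE, adjusted p 0.00048 by limma-trend). Nfia, a transcription factor gene of gliogenesis, had 5 lower peaks of 59 and 1 higher, with 2 to 4 lower when a library was left out (2 without replicate 2 with TNF and 3 without any 1 of the untreated libraries). The peak at chr4:97785530-97786030 had 147, 227 and 195 without TNF and 94.8, 75.4 and 101 with it (-1.05 ± 0.19 SE, adjusted p 0.00037). Near Stat3, which carries cytokine signals that drive astrocyte genes, a peak at chr11:100946732-100947232 had 479, 390.0 and 409 without TNF and 828, 780.4 and 802 with it (0.92 ± 0.13 SE, adjusted p 1.6e-05). Directions were therefore mixed within this list. Of its 18 gene-end peaks 0 were called, against 3.29% higher and 1.45% lower of all gene-end peaks.

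AP-1, C/EBP and immediate early factors had 15 of 102 locus peaks (14.7%) higher and 4 (3.92%) lower. Cebpd, a C/EBP gene induced in inflammation, had all 3 locus peaks higher, and 2 with each library left out. Its gene-end peak (chr16:15886974-15887474) held 474, 518 and 495 normalised reads without TNF and 916, 856 and 1009 with it (log2 difference 0.90 ± 0.10 SE, adjusted p 6.8e-07 by limma-trend). Junb, an AP-1 subunit gene, had 3 of 6 higher, among them chr8:84979823-84980323 with 297, 374 and 317 without TNF and 706, 652 and 672 with it (1.04 ± 0.14 SE, adjusted p 5e-06). Runx1, a transcription factor gene of blood development, had 86.2, 84.9 and 65.0 without TNF and 226, 232 and 217 with it inside the gene (1.52 ± 0.27 SE, adjusted p 0.00032). At Fos 0 of 3, at Jun 0 of 2 and at Egr1 0 of 2 locus peaks were called.

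The remaining lists gave smaller or mixed counts. TGF-β, Smad and contractile genes had 10 of 140 locus peaks (7.14%) higher and 0 lower, although 0 to 1 were lower with a library left out and up to 6 in other settings. The peak inside Smad3, a signal carrier of TGF-β, had 196, 194 and 172 normalised reads without TNF and 813, 856 and 937 with it at chr9:63706281-63706781 (log2 difference 2.21 ± 0.13 SE, adjusted p 9.3e-12 by limma-trend). Adhesion, matrix and protease genes had 10 of 89 (11.2%) higher and 4 (4.49%) lower, with 5 to 8 and 2 to 4 when a library was left out. NRF2 oxidative stress genes had 7 of 58 (12.1%) and 5 (8.62%), with ranges of 4 to 6 and 3 to 4, and proliferation genes 1 of 52 (1.92%) and 3 (5.77%), with ranges of 0 to 1 and 1 to 3. All 16 proliferation genes had a gene-end peak and 0 of these were called, Mki67 and Ccnb1 included. Among all gene-end peaks 3.29% were higher and 1.45% lower, so 0 calls in so few peaks is near that share. Neuron markers had 4 of 92 (4.35%) higher and 2 (2.17%) lower (2 to 4 and 0 to 2 with a library left out), and microglia markers 3 of 28 (10.7%) and 1 (3.57%), with ranges of 1 to 3 and 0 to 1. Mesenchymal and endothelial markers had 2 of 31 (6.45%) in either direction, with 2 higher and 0 to 2 lower when a library was left out. Oligodendrocyte lineage markers had 7 of 53 (13.2%) higher and 4 (7.55%) lower, with ranges of 5 to 7 and 1 to 3. The lower peaks belonged to Sox10 (2 of 5), Myrf (1 of 5) and Nkx2-2 (1 of 4). All 4 locus peaks of Olig2, a factor of the oligodendrocyte lineage, were higher, and the peak at chr16:91233399-91233899 had 59.2, 77.8 and 58.6 without TNF and 164, 158 and 169 with it (1.33 ± 0.21 SE, adjusted p 5.5e-05). Without untreated replicate 1 or replicate 2 with TNF 2 of the 4 kept the call, and the gene-end call was lost in both (adjusted p 0.16 and 0.11).

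Some loci collected many calls. Shroom3, whose protein shapes epithelial cells, had 10 of 38 locus peaks higher and 0 lower, and Arnt2, a partner of bHLH-PAS factors, had 7 of 21 higher and 0 lower. The Arnt2 peak at chr7:84337723-84338223 held 47.6, 43.1 and 49.7 normalised reads without TNF and 381, 288 and 431 with it (log2 difference 2.93 ± 0.28 SE, adjusted p 3.9e-08 by limma-trend). Cdkal1 had 7 of 37 and Spata13 7 of 25 higher, both with 0 lower. Directions were mixed at Rbms3 (8 higher and 2 lower of 37), Rad51b (7 and 4 of 34) and Tns3 (7 and 3 of 29). Dner, a Notch ligand gene of the nervous system, had 11 of 28 lower and 1 higher, and the peak at chr1:84371740-84372240 had 235, 239 and 231 without TNF and 67.1, 72.4 and 69.6 with it (-1.74 ± 0.21 SE, adjusted p 1.6e-06). Tns1 had 10 of 36, Sema6d 8 of 41 and Cntn1, a neural adhesion gene, 8 of 22 lower, all with 0 higher. The adhesion genes Sdk2 and Tnr had 9 of 28 and 7 of 31 lower beside 1 and 3 higher. Rgs3 had 8 of 26 lower and 1 higher, and Msi2 8 of 63 lower and 4 higher. With a library left out the counts in the leading direction were 4 to 8 at Shroom3, 5 to 8 at Arnt2, 3 to 5 at Rbms3, 4 to 6 at Rad51b and Tns3, 6 to 7 at Cdkal1 and 5 to 7 at Spata13. For the lower calls they were 7 to 9 at Dner (7 without untreated replicate 1 or replicate 3 with TNF), 4 to 10 at Tns1, 6 to 10 at Sdk2, 4 to 7 at Cntn1 and Sema6d, 3 to 5 at Msi2, 3 to 6 at Rgs3 and 5 to 6 at Tnr. These loci were picked for their counts, which describe them and were not tested.

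The peaks called at 72 h were then followed in the other groups, whose values are not in the contrast but share in its estimate of the spread. At 24 h, TNF against its own untreated cells called 7.06% of all peaks higher and 3.53% lower. Of the 5551 peaks higher at 72 h, 58.5% were called higher at 24 h, which are 51.7% of the higher calls at 24 h. Of the 4932 lower peaks 33.5% were called lower at 24 h, which are 52.7% of the lower calls there. The peaks higher with TNF at 72 h stood 0.78 ± 0.03 (SD, n = 3) above the library mean of all peaks on the log2 scale at 24 h with TNF and at -0.05 ± 0.03 (n = 3) at 24 h without it. For the lower peaks these values were -0.12 ± 0.01 and 0.44 ± 0.04.

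Untreated differentiation gave another view of the same peaks. Between NSPs and 24 h, 24.2% of all peaks were called higher and 23.0% lower at 24 h. Of the peaks lower with TNF at 72 h, 49.7% were higher and 13.4% lower at 24 h than in NSPs, and of those higher with TNF 34.7% and 20.7%. Between NSPs and 1 week, 33.7% of all peaks were called higher and 33.6% lower at 1 week. The shares were 48.7% and 27.7% for the peaks lower with TNF and 50.4% and 22.4% for those higher with TNF. Library names of the 72 h and 1 week groups carry a tag that those of the NSP and 24 h groups lack, so tag and group cannot be told apart for 1 week against NSPs, whereas 72 h with and without TNF share it.

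**Figure D5:**
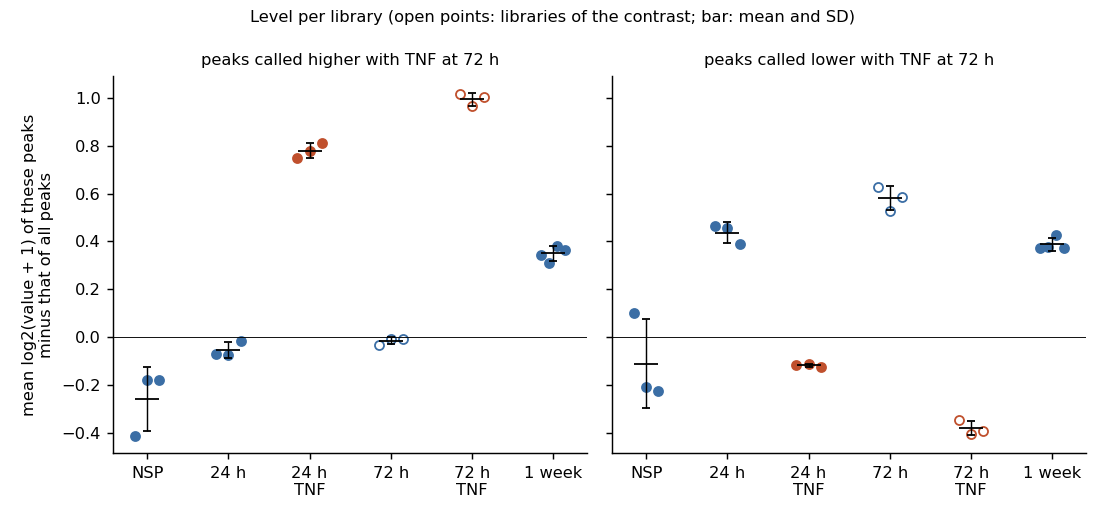
Mean log2 level of the 5551 peaks higher and of the 4932 peaks lower with TNF at 72 h in each of the 19 libraries, minus the mean of all peaks in that library. The 72 h libraries are those of the contrast, and among the others the higher peaks average 0.78 at 24 h with TNF against -0.05 without it.

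A difference between the TNF effects at 72 h and 24 h was tested with an interaction term, and 1 of 88919 peaks (0.00112%) was called, while 3191 and 3484 had an unadjusted p under 0.05 in the 2 directions. The count was 188 with only the 12 libraries of both times and 504 with the title number as a block. The called peak lies 111314 bp from Bmp7, a bone morphogenetic protein gene (chr2:172756448-172756948). At 72 h it held 197, 201 and 218 normalised reads without TNF and 148, 124.2 and 143 with it (log2 difference -0.57 ± 0.14 SE, adjusted p 0.0084 by limma-trend), a call lost without replicate 2 with TNF (adjusted p 0.053). At 24 h it rose instead, from 121 ± 1.76 (SD, n = 3) to 239 ± 17.4 (n = 3).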

How the data were processed

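ATAC-seq was measured in 19 libraries, of which 3 untreated and 3 TNF-treated libraries at 72 h were compared. The deposited table holds 1 normalised signal per peak and library for 90154 peaks, 89898 of them with an end 500 bp after the start, in coordinates as deposited. To make this table the authors used Trim Galore for trimming, Bowtie2 for alignment (build mm10), SAMtools and a blacklist for filtering, MACS2 for peak calling and DiffBind for the values, as the labels and the paper's methods state. Versions are not given in the sources used here. Every signal value was a whole multiple of the worth of 1 read in its library, so whole reads were recovered (100% of values) and used for depth, the filter, edgeR and DESeq2.

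Values were tested as log2(value + 1) with limma-trend (limma 3.58.1, R 4.3.3), 1 mean per group over all 19 libraries, with the contrast TNF minus untreated at 72 h and Benjamini-Hochberg adjustment. Fold changes are on that scale, which understates those of low peaks. filterByExpr (edgeR 4.0.16, minimum count 10) left out 1235 peaks and kept 88919. Alternatives were edgeR, DESeq2 1.42.0, total-read and loess scaling, a pseudocount of 8, no filter or a mean of at least 50 reads, fewer libraries, fewer chromosomes and left-out libraries. Scripts were tested on simulated data. Intervals for counting error were not needed, since the spread between libraries was used.

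Genes came from RefSeq (GRCm38.p6) without strand, and promoter sequences from RefSeq matched 210 of 284 list genes. The files' build, mm10, is the UCSC name of GRCm38. Peaks were named by rule: in each direction the 10 smallest p-values and the 5 largest changes, the 8 genes with the most calls, calls of the interaction, up to 6 members of each list, and genes named by the study. List members were those with the smallest p at a locus peak or at the gene-end peak. The peaks given for them therefore do not describe their loci or lists as a whole. Further locus peaks and uncalled genes were chosen after their values were seen. The locus of 1 gene with many calls is not reported here. Members and lists were chosen with earlier results of these data known.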

Additional observations from a re-analysis of the deposited data

Results flagged for a closer look

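In the fit over all 19 libraries, 1 peak had TNF effects that differed between 72 h and 24 h. With only the 12 libraries of both times there were 188 such peaks, and with the title number as a block 504. The 1 peak lies 111314 bp from Bmp7, and its log2 fold change with TNF was -0.57 ± 0.14 SE at 72 h and 0.97 ± 0.14 SE at 24 h, a difference of -1.54 ± 0.20 SE (interaction term in limma-trend, adjusted p 0.0022). The direction was lower in 3 of 3 treated libraries at 72 h. The difference was called in 16 of 16 settings, with values from -1.63 to -1.46.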

How the results depend on the processing

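Of 236 named peaks that were called, 161 kept the call in every setting, 75 lost it in a fit without 1 library, 35 lost it in another setting and 0 reversed. Among all 10483 calls of the main fit, each fit without 1 library kept 6384 to 7265. The number of higher peaks was 3602 to 4261 and of lower peaks 2829 to 3618 with a library left out. Those ranges were 204 to 390 and 109 to 142 for gene ends, 1905 to 2168 and 1371 to 1768 for changes of at least 2-fold, and 1 to 2 for the difference between 72 h and 24 h. Fitting only the 6 libraries of 72 h gave 8739 higher and 7686 lower peaks, and 844 and 302 at gene ends. With the number in the sample titles as a block the counts were 9773 and 7925, and 1480 and 316 at gene ends. The deviations of libraries with the same title number correlated at 0.0136, -0.0261 and 0.0202, and not every library correlated best with its own. For the pairs with the same number in the library names the values were 0.0309 and 0.0232. Whether same-numbered libraries share a culture is not stated and cannot be told from values this small. The number in the library names, shared by 2 pairs, gave 6842 and 5631 as a block. A mean of at least 50 reads left 1484 higher and 1165 lower changes of at least 2-fold. Total-read scaling gave 291 higher gene ends and moved the median of all peaks from 0.03 to -0.05. Gene ends drawn within 500 bp and 2 kb held 115 and 365 lower peaks. For the difference between 72 h and 24 h the count was 7 with loess scaling, 188 with only the 12 libraries of both times, 5 with a pseudocount of 8, 504 with the block and 8 with total-read scaling. The causes were not tested. By level, 3.86% of the 17784 lowest peaks were called higher, 8.59% of the 17784 just under the highest class and 7.66% of the 17784 highest.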
